A study of Hordeum vulgare with 2 samples.

Results

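The microRNA families miR395, miR399 and miR827 are described here through the messenger RNA cleavage positions that a degradome experiment in barley shoots assigned to them. Members were taken by name: every record whose small RNA name holds mir395, mir399 or mir827 with no further digit. This gave 362 of the 17485 records in the list of ZD9 and 790 of the 40424 records in the list of XZ153. Of the 362 ZD9 records, 317 carry values and 45 stand at the end of the list with no values, so the results below rest on 317 and 790 records. Isoforms were merged to their gene for gene counts, and mature names (written -miR) were kept apart from names of hairpin arms (written -MIR).

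The series compared small RNAs under low potassium in Tibetan wild barley and cultivated barley, and its degradome data consist of 1 shoot library of ZD9 and 1 of XZ153, both labelled only by cultivar and tissue. Seedlings grew in hydroponic culture and received 0.01 or 1 mM potassium, and the labels do not say which level, or whether both, went into either library. With 1 library per cultivar there is no replicate check, so no difference between ZD9 and XZ153 was tested, and intervals given below are exact (Clopper-Pearson) 95% intervals that cover counting error only. They treat records as independent, although isoforms of a gene share sequence and reads.

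Degradome sequencing reads the 5′ end of uncapped RNA fragments, which is where a microRNA-guided cut leaves a downstream fragment. A plant microRNA guides the cut between the bases opposite its positions 10 and 11, counted from its 5′ end. In other plants miR395 accumulates when sulfate is short and is known for cutting messages of ATP sulfurylases, the enzymes that activate sulfate, and of a sulfate transporter. miR399 accumulates when phosphate is short and is known for messages of PHO2, a ubiquitin-conjugating enzyme that limits phosphate uptake, whose leader holds several miR399 sites in a row. miR827 is known for messages of proteins with an SPX domain, which senses phosphate status. The lists give barley genes by identifier alone and no table used here pairs those identifiers with descriptions, so no target below is given a gene name or role.

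The sequences that carry the known activity of each family are shown first, with the seed (bases 2 to 8) in capitals, as the lists give them.
ata-miR395a-3p: uGAAGUGUuugggggaacuc
osa-miR395b_L-1_1ss15GA: uGAAGUGUuugggagaacuc
osa-miR399a: uGCCAAAGgagaauugcccug
osa-miR399d: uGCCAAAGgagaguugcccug
osa-miR827: uUAGAUGAccaucagcaaaca
The seed GAAGUGU was shared by 5 miR395 names, of which ata-miR395a-3p and bdi-miR395a have the same sequence. GCCAAAG was shared by both miR399 names shown, and UAGAUGA belonged to osa-miR827 alone. These 8 names are called guide-strand names below, since they carry the strand known to act on the targets named above. No name of another family in the lists had any of these 3 seeds.

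The remaining mature names come from the opposite strand of the hairpin, and these were chosen to show how different their seeds are.
ata-miR395e-5p_1ss8AG: gUUCCUUGcaagcacuucacg
ata-miR395a-5p_1ss5CT: gUUCUCUUcaagcacuucagg
ata-miR399b-5p_L-2R+2: gGGCGCUUcuccuuuggcacg
bdi-miR827-5p: uUUUGUUGguugucaucuaacc
The hairpin-arm names are 18 to 21 bases long, and the one with the lowest deposited p-value was gma-MIR399c-p5_1ss6TC, sequence gGGCUCCUcuuuauuggcagg. Of all the seeds of the 3 families, 1 was shared with another family: UUCCCUG of bdi-miR395c-5p_1ss11AG also begins a hairpin-arm name of miR5368.

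The target sites that the results turn on follow, 5′ to 3′ on the transcript, with the bases opposite the seed in capitals.
HORVU5Hr1G094300, miR395: gaguuccuccaaGCACUUCa
HORVU1Hr1G072640, miR399: cggggauuuucCUUUGGCa
HORVU1Hr1G085570 isoform 4, miR399: uagggcaaaucucCUUUGGCg
HORVU1Hr1G085570 isoform 3, miR399: cugggcaaaucucCUUUGGCg
HORVU1Hr1G018720, miR399: cagggccguaacucucCUGGCa
HORVU2Hr1G094690, miR827: gguuugcugauguUCAUCUAa
The sites on HORVU5Hr1G094300, HORVU1Hr1G085570 and HORVU2Hr1G094690 pair with nearly the whole small RNA, as the map of pairing by position shows. HORVU1Hr1G018720 lacks partners for bases 6 and 7 of osa-miR399d, inside the seed.

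**Figure D1:**
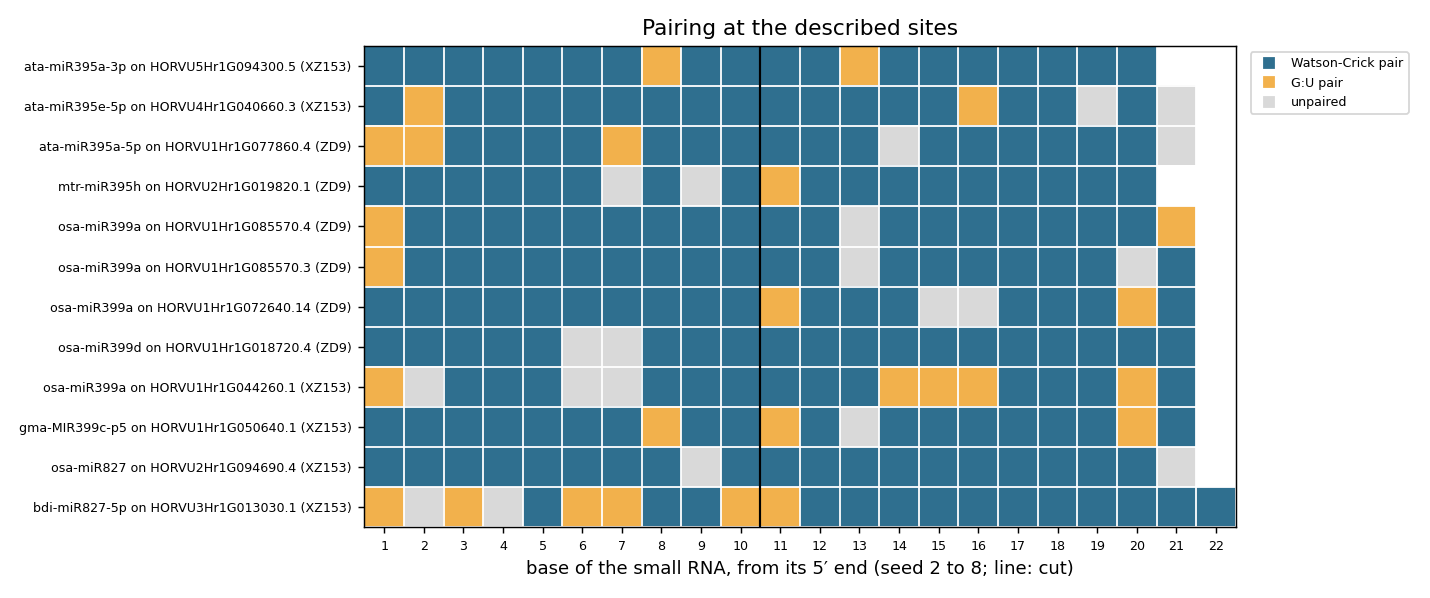
Pairing of each named site with its small RNA, by base position of the small RNA counted from its 5′ end (horizontal axis), with 1 row per site; colours separate Watson-Crick pairs, G:U pairs and unpaired bases, and the vertical line marks the cut. The miR395 site of HORVU5Hr1G094300 has 18 Watson-Crick and 2 G:U pairs over 20 bases with none unpaired, and the miR827 site of HORVU2Hr1G094690 has 19 Watson-Crick pairs over 21 bases.

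Each record carries an Allen score, a mismatch penalty that is lower for better pairing, a ratio of the duplex's free energy to that of a perfect duplex, a category and a p-value. The column names match those of CleaveLand, a tool for degradome data, which the labels do not name, and the categories are read here by its definitions. Category 0 marks the single position with the most reads on its transcript, and category 1 a position that shares the highest number with another. Category 2 is a lower position above the transcript's average, and category 3 one at or below that average with more than 1 read. Category 4 is a position with 1 read. Some versions of the tool use the median in place of the average, and the labels give no version. In ZD9 the 10289 category 4 records equal in number the records with 1 raw read. A record was called supported when its category was 0 to 2 and its deposited p-value was at most 0.05, and well paired when its Allen score was at most 4. The p-values are those of the deposited lists, are not adjusted for the number of records, and compare no cultivars.

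Across the 3 families, 1 of 317 records in ZD9 was supported, which is 0.315% (0.00799 to 1.74%), beside 0.695% of all records of that list. In XZ153 it was 7 of 790, or 0.886% (0.357 to 1.82%), beside 0.675% of all records. Merged to genes and split by name, ZD9 had 1 supported pair of family and gene under mature names (exact Poisson interval 0.0253 to 5.57, background 1.93% of mature records) and 0 under hairpin-arm names (0.227%). XZ153 had 4 under mature names (1.09 to 10.2, background 1.69%) and 1 under hairpin-arm names (0.306%). These backgrounds are shares of records, not of pairs. As records, mature names had 1 of 156 supported in ZD9, or 0.641% (0.0162 to 3.52%), and 6 of 414 in XZ153, or 1.45% (0.534 to 3.13%). Hairpin-arm names had 0 of 161 (up to 2.27%) and 1 of 376, or 0.266% (0.00673 to 1.47%). Each of these intervals includes the share of its background. In the part of XZ153 that the ZD9 values also cover, 1 of the 4 mature pairs (background 1.4%) and the arm pair (0.699%) were found.

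The families sat close to the rest of the lists in category, and with all names pooled, well-paired records were less frequent among them. Records in categories 0 to 2 were 75 of 317 in ZD9, or 23.7% (19.1 to 28.7%), against 23.3% of all records, and 151 of 790 in XZ153, or 19.1% (16.4 to 22.03%), against 19.1%. Category 0 held 3 records in ZD9 and 11 in XZ153, where all records gave 1.7% and 1.49%. Well-paired records were 5 of 317, or 1.58% (0.514 to 3.64%), in ZD9 and 12 of 790, or 1.52% (0.787 to 2.64%), in XZ153. Both shares are below those of all records, 3.68% and 3.74%, which lie above both intervals, in ZD9 only just. Split by name, ZD9 had 1.92% (0.398 to 5.52%) under mature and 1.24% (0.151 to 4.42%) under arm names. These intervals include the shares of all such records, 2.64% and 4.15%. XZ153 had 1.45% (0.534 to 3.13%) and 1.6% (0.588 to 3.44%), below 3.82% and 3.78%. The deposited p-value exceeded 0.5 in 297 records in ZD9 and in 717 in XZ153, which is 93.7% and 90.8%, beside 96.6% and 93.9% of all records.

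**Figure D2:**
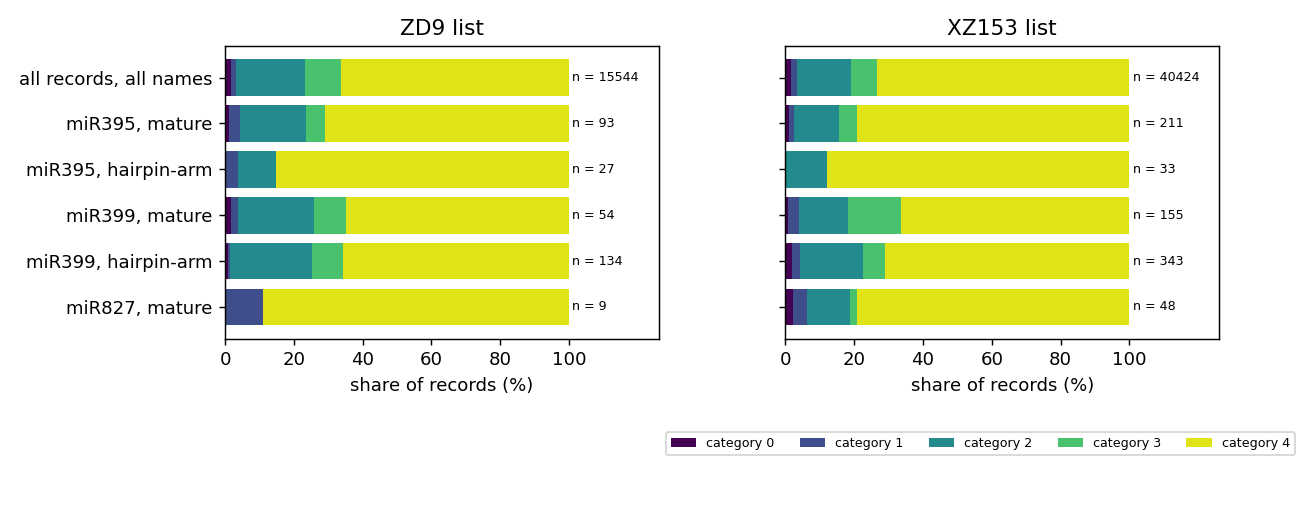
Share of records (percent, horizontal axis) in each degradome category, for all records and for each family and kind of name, in ZD9 (left) and XZ153 (right), with the number of records at each bar. Category 4, a single read, is the widest segment in every bar of both lists.

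The lists name many more genes than they support. Under mature names miR395 was listed on 55 genes in ZD9 (93 records) and 140 in XZ153 (211 records), miR399 on 32 (54 records) and 98 (155 records), and miR827 on 6 (9 records) and 30 (48 records). Hairpin-arm names were listed on 11 and 21 genes for miR395 and on 63 and 199 for miR399, some of the latter already listed under mature names, and miR827 had no hairpin-arm name. The ZD9 values end at transcript isoform 5 of HORVU2Hr1G036110, so any gene beyond that point has values in XZ153 alone. Up to that point XZ153 lists 192 records of the families on 114 genes, against 317 records on 162 genes in ZD9. Over all names XZ153 also has fewer there, 8350 records on 1976 genes against 15544 on 2430 genes in ZD9. Under mature names no gene of ZD9 and 5 genes of XZ153 were listed for more than 1 of the families.

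Guide-strand names held the well-paired part of the mature records. Guide-strand names made up 61 records on 30 genes in ZD9 and 147 on 96 genes in XZ153. All well-paired records under mature names were guide-strand records, 3 in ZD9 and 6 in XZ153. They lie on 2 genes in each list, so some are isoforms of the same gene. The other mature names had 0 of 95 and 0 of 267, where 2.64% and 3.82% of all mature records were well paired. A deposited p-value below 0.5 was found for 21.3% of guide-strand records in ZD9 and 25.2% in XZ153, for 3.16% and 6.37% of records under the other mature names, and for 2.48% and 5.05% under hairpin-arm names. In ZD9 the guide-strand share came from miR399, with 11 of 14 records (6 of them isoforms of HORVU1Hr1G018720), while miR395 had 1 of 43 (2.33%), below the 6% of its other mature names. In XZ153 guide-strand records had 13.8% for miR395, 43.1% for miR399 and 25% for miR827, and the other mature names 7.63%, 1.92% and 15.6%. The miR399 value there is 22 of 51 records, many of them copies. Among the 51, 15 share 1 target sequence with an Allen score of 13.5 and p-values from 0.273 to 0.99, described below. A further 5 are isoforms of HORVU1Hr1G018720, with an Allen score of 7. The deposited p-value takes pairing into account, so these shares are not independent of the Allen scores. Categories 0 to 2, which rest on the reads, did not follow that order: 14 of 61 guide-strand records in ZD9 (13.2 to 35.5%) and 18 of 147 in XZ153 (7.42 to 18.7%) were in them, against 23 of 95 (16.01 to 34.1%) and 52 of 267 (14.9 to 24.7%) for the other mature names. Over all mature records the shares were 22.7% and 19.4%.

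The best-supported target of miR395 was HORVU5Hr1G094300, which was listed with the guide-strand sequence on 4 isoforms in XZ153. Isoform 2 was cut at position 320 in category 0 with a deposited p of 0.00121. Isoform 5 was cut at position 118 in category 0 with a p of 0.000985, the lowest of all records of the 3 families. Isoform 1 was cut at position 115 in category 2 with a p of 0.0113. Isoform 6 was cut at position 112 in category 3 with a p of 0.00475, under the name bdi-miR395a, whose sequence is that of ata-miR395a-3p. The site was the same 20 bases in all of these isoforms, with an Allen score of 1.5 and an energy ratio of 0.964. The p-value of isoform 6 is below 0.05, but its category leaves it outside the supported class. The 4 records are 1 site seen through overlapping transcript models, not 4 independent cuts.

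HORVU5Hr1G094300 lies beyond the end of the ZD9 values, so its cleavage in ZD9 was not analysed here. XZ153 lists 8 records on this gene in all. The other 4, assigned to other families, held no category 0 and had a lowest p of 0.999.

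The other supported miR395 gene in XZ153 was HORVU4Hr1G040660, at position 1606 of isoform 3, under the opposite-strand name ata-miR395e-5p_1ss8AG. Its category was 2, its p 0.0336 and its Allen score 6.5, with 17 Watson-Crick pairs, 2 G:U pairs and 2 unpaired bases out of 21. The pairing is weaker than at HORVU5Hr1G094300, and this site is also beyond the ZD9 values.

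No miR395 record was supported or well paired in ZD9. The lowest p was that of HORVU1Hr1G077860, at position 35 of isoform 4, under ata-miR395a-5p_1ss5CT, with 2 raw reads, category 1, a p of 0.0536 and an Allen score of 5. It missed the p-value limit narrowly and the pairing limit as well. With 0 of 93 mature miR395 records supported in ZD9, genes beyond the end of its values remain unexamined in that cultivar.

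The miR395 site with the most reads in ZD9 was poorly paired. HORVU2Hr1G019820, under mtr-miR395h_L-1, had 24 raw reads at position 469 of isoform 1 and 20 at position 542 of isoform 3. Both were category 2, with an Allen score of 7 and p-values of 0.972 and 0.969. Bases 7 and 9 of the small RNA had no partner. XZ153 lists the same positions, again in category 2, with p-values of 0.691 and 0.678. HORVU1Hr1G063940 followed with 7 reads at position 626 under bdi-miR395e-5p, in category 3 of both lists, with p-values of 0.723 in ZD9 and 0.341 in XZ153. HORVU1Hr1G068030 had 1, 1, 4 and 1 reads on 4 isoforms under ata-miR395a-3p_R+2 at an Allen score of 8.

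Among hairpin-arm names of miR395 no record was supported. In XZ153 the record with the lowest Allen score was HORVU2Hr1G068610, position 1527 of isoform 2, under lus-MIR395d-p3_2ss3TG17CG, at 1.5, equal to that of HORVU5Hr1G094300. It was a category 4 position with a p of 0.169, so the close pairing stood beside a single read. In ZD9 the lowest p was 0.332, at position 3415 of isoform 3 of HORVU1Hr1G032310, with 1 read and an Allen score of 4.5.

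**Figure D3:**
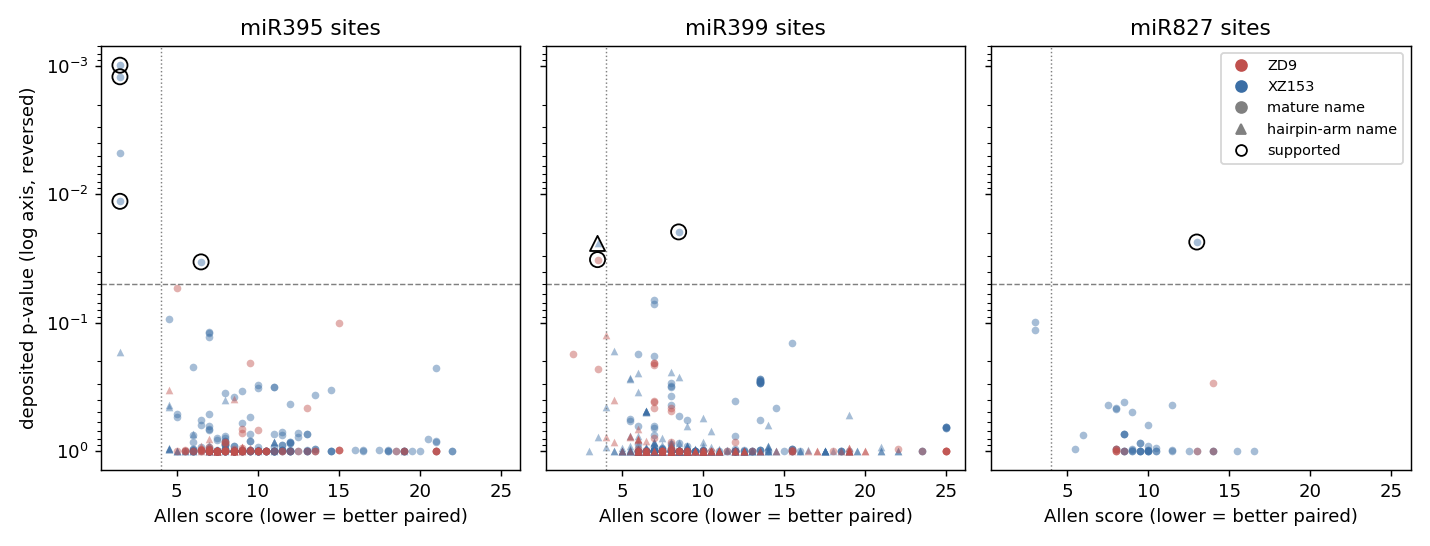
Deposited p-value (vertical, log axis, reversed so that low p is at the top) against Allen score (horizontal, lower is better paired), 1 panel per family and 1 point per record. Colour gives the list, shape the kind of name, black outlines the supported records, the dashed line a p of 0.05 and the dotted line an Allen score of 4; the miR395 records of HORVU5Hr1G094300 stand at the top at an Allen score of 1.5, and the single outlined ZD9 record is that of miR399 on HORVU1Hr1G072640 at 0.0323.

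The only supported record of the 3 families in ZD9 belonged to miR399. HORVU1Hr1G072640 was cut at position 378 of isoform 14 under osa-miR399a, in category 0 with 2 raw reads, a p of 0.0323, an Allen score of 3.5 and an energy ratio of 0.71. Every base of the seed was paired, and bases 15 and 16 were not. Category 0 here means 2 reads, since no position of the transcript had more. The other 4 ZD9 records on the gene all had a p of 1. XZ153 lists 2 records on the gene and none of them for miR399.

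The best-paired miR399 gene was HORVU1Hr1G085570 in ZD9, with 2 records on different isoforms. Position 288 of isoform 4 had an Allen score of 2, an energy ratio of 0.874 and a p of 0.176. Position 1154 of isoform 3 had an Allen score of 3.5, an energy ratio of 0.823 and a p of 0.23. Each record had 1 read and was in category 4. The sites printed above are alike in 19 of 21 bases and differ only in the first 2, and their seed matches are the same. Whether the 2 records are 1 site and 1 read seen through different transcript models was not tested. XZ153 lists 14 records on this gene, none of them for miR399. Of these, 3 were in category 0, all for other families, and the lowest p was 0.631. The other 20 ZD9 records on the gene held no category 0 and had a lowest p of 0.967.

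HORVU1Hr1G018720 recurred between the lists on several isoforms. In ZD9 the site under osa-miR399d had 5, 2, 5, 9, 8 and 3 raw reads on isoforms 1 to 6, at positions 3767, 1794, 536, 848, 693 and 1081. Isoforms 1, 4 and 5 were in category 2 with p-values of 0.408, 0.462 and 0.417, and isoforms 2, 3 and 6 were in category 3 with p-values of 0.214, 0.208 and 0.205. XZ153 lists isoforms 2 to 6 at the same positions. There isoforms 5 and 6 had the lower p-values, 0.0665 and 0.0718 in category 3, isoform 2 had 0.182 in category 2, and isoforms 3 and 4 had 0.643 and 0.658 in category 4. The site pairs at 19 of 21 bases and has an Allen score of 7, with bases 6 and 7 unpaired and 3 extra bases in the transcript. In neither list was it supported.

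In XZ153 the supported mature miR399 record was HORVU1Hr1G044260, position 389 of isoform 1, under osa-miR399a, in category 1 with a p of 0.0196. Its Allen score of 8.5 reflects 13 Watson-Crick pairs, 5 G:U pairs and 3 unpaired bases, with unpaired bases at 2, 6 and 7 in the seed. It is the weakest pairing of the supported miR399 records. The site is within the range of the ZD9 values, where this gene has no record of the 3 families. HORVU2Hr1G001350, position 404 of isoform 1, was in category 0 in XZ153 under osa-miR399d with a p of 0.144 and an Allen score of 15.5, and had 1 read and a p of 1 in ZD9.

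Some miR399 records are copies of 1 target sequence. In XZ153 the site cggggcauguccccucCuUUUGGCu under osa-miR399a was listed on 15 transcripts of 8 genes, with an Allen score of 13.5, p-values from 0.273 to 0.99, and 1 record in categories 0 to 2. This sequence was chosen for mention after its values were seen, and it accounts for 15 of the 51 guide-strand miR399 records of XZ153. Whether reads could be assigned to single genes among these 8 was not tested.

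The opposite-strand name ata-miR399b-5p_L-2R+2 had most of the mature miR399 records, 40 of 54 in ZD9 and 104 of 155 in XZ153, and 0 supported. Its genes with the most reads in ZD9 were HORVU1Hr1G022660, with 5 and 10 reads on isoforms 1 and 2, and HORVU1Hr1G087440, with 6 reads. All of these were category 2 with a p of 1 and an Allen score of 7.5.

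Hairpin-arm names of miR399 gave 1 supported gene, in XZ153. HORVU1Hr1G050640 was cut at position 1161 of isoform 1 under gma-MIR399c-p5_1ss6TC in category 2, with a p of 0.0241, an Allen score of 3.5 and 17 Watson-Crick pairs, 3 G:U pairs and 1 unpaired base. The site is within the range of the ZD9 values, where the gene has other records but not this one. The other 4 well-paired arm genes of XZ153, HORVU5Hr1G051100, HORVU4Hr1G050580, HORVU5Hr1G076600 and HORVU7Hr1G093000, had Allen scores of 3 to 4, were all in category 4 and had p-values of 1, 0.783, 0.931 and 0.458.

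In ZD9 the hairpin-arm record of miR399 with the lowest p was on HORVU1Hr1G068490, under mtr-MIR399e-p3_2ss6GA17AG at an Allen score of 4. Position 91 of isoform 2 had 2 reads, category 1 and a p of 0.125. Position 545 of isoform 1 had 3 reads, category 2 and a p of 0.784. The isoform with fewer reads had the lower p and the category nearer to 0.

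The miR399 arm sites with the most reads were not well paired. HORVU1Hr1G075560 under ghr-MIR399a-p5_2ss15GT17GT had 9, 12, 17 and 16 raw reads on isoforms 1 to 4 in ZD9, all in category 2 with an Allen score of 9 and a p of 1. In XZ153 the categories were 2, 1, 2 and 2, with p-values of 0.999, 0.642, 0.999 and 0.999. HORVU1Hr1G095430 had 4, 4, 7 and 1 reads and HORVU0Hr1G008550 had 4, 5, 2 and 6. In XZ153 HORVU3Hr1G065580, chosen for mention after its values were seen, was in category 0 on 5 isoforms under bdi-MIR399a-p5, with p-values from 0.484 to 0.497 and an Allen score of 6.5. These category 0 positions kept p-values far from the limit of 0.05.

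For miR827 the guide-strand name gave 1 well-paired gene and 0 supported ones. HORVU2Hr1G094690 in XZ153 was listed at position 192 of isoform 4 with a p of 0.114 and at position 151 of isoform 19 with a p of 0.0983. Both were in category 4, with an Allen score of 3, an energy ratio of 0.813, 19 Watson-Crick pairs and unpaired bases 9 and 21. These were the only records of any family on this gene in XZ153, and the gene is beyond the ZD9 values. All 16 records of osa-miR827 in XZ153 were in category 4, so 0 of 16 were in categories 0 to 2 (interval up to 20.6%). Over all mature names of XZ153, 19.4% were in categories 0 to 2, which the interval includes, and 74.3% in category 4.

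The supported miR827 record came from the opposite strand and was poorly paired. HORVU3Hr1G013030 was cut at position 761 of isoform 1 in XZ153 under bdi-miR827-5p, in category 0 with a p of 0.0235 and an Allen score of 13. It has 14 Watson-Crick pairs, 6 G:U pairs and 2 unpaired bases, bases 2 and 4 of the seed. Its site is also beyond the ZD9 values.

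In ZD9 miR827 had 9 records. HORVU1Hr1G016130 had 3 reads at position 1268 of isoform 3, in category 1 with a p of 0.297 and an Allen score of 14, and 1 read at position 717 of isoform 5. The other records, among them those on HORVU0Hr1G014840 and HORVU1Hr1G015490 at an Allen score of 8, had 1 read each.

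The raw reads of ZD9 were few for all of the families. Records of miR395 had 1 to 24 reads (120 records, 208 reads in sum), those of miR399 had 1 to 17 (188 records, 396 reads) and those of miR827 had 1 to 3 (9 records, 11 reads), each with a median of 1. The whole list holds 34935 reads over its valued records. A single read lay behind 74.2% of miR395 records, 65.4% of miR399 records and 88.9% of miR827 records, beside 66.2% of all records. More than 5 reads were found for 18 of 317 records, or 5.68%, against 5.6% of all records. The 1 supported record had 2 reads, so none of the 18 records with more than 5 reads was supported. With 1 supported record, no relation between reads and support can be read from this. The sum of listed reads is not the depth of the library, which is unknown, and the XZ153 list gives no raw reads.

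**Figure D4:**
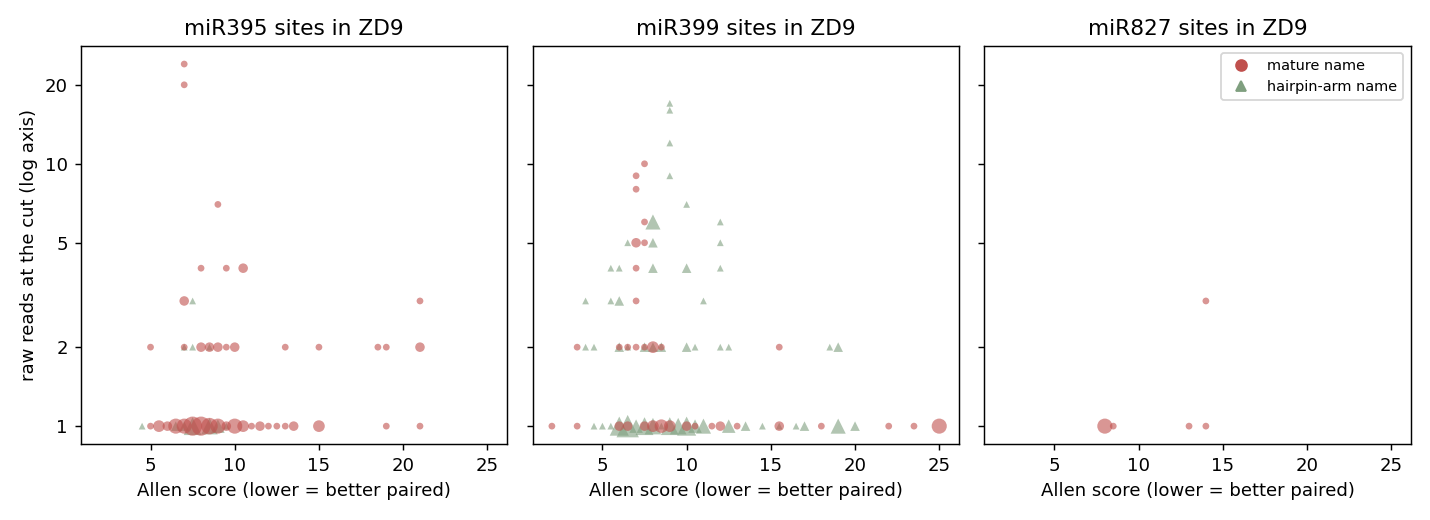
Raw reads (vertical, log axis) against Allen score (horizontal) for the ZD9 records with values, 1 panel per family; colour and shape give the kind of name, and larger symbols stand for several records at the same values. Most records lie at 1 read, and the highest are miR395 on HORVU2Hr1G019820 at 24 reads and miR399 on HORVU1Hr1G075560 at 17.

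Several cuts on 1 transcript under mature names were listed for 1 of 92 miR395 transcripts in ZD9 and 6 of 205 in XZ153. The same share over all mature names was not computed, so these counts cannot be called particular to the families. All transcripts with several positions under mature names are named here, a choice made after their values were seen. In ZD9 there was 1 such transcript, isoform 3 of HORVU1Hr1G089820, with miR395 positions 409 and 1018 that lie 609 bases apart under different opposite-strand names. In XZ153 there were 6 transcripts of 4 genes, all of miR395. HORVU3Hr1G022020 had pairs 477, 340 and 340 bases apart on isoforms 1 to 3 under bdi-miR395e-5p. HORVU0Hr1G031710 had a pair 201 bases apart on isoform 3 under the guide-strand name ata-miR395a-3p_R+2. HORVU1Hr1G005870 and HORVU7Hr1G050170 had pairs 5 and 11 bases apart, each under different opposite-strand names. On HORVU1Hr1G005870 both records span the same bases, 276 to 302, so its 2 positions are 1 site aligned in different ways, and on HORVU7Hr1G050170 the sites, 548 to 570 and 560 to 579, overlap.

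None of these positions was supported or well paired. Mature miR399 had 0 transcripts with several positions, of 54 in ZD9 and 155 in XZ153, and miR827 had 0 of 9 and 0 of 48. The lists give each position of a transcript once, under 1 name, so a position that several family members could cut counts once. Hairpin-arm names of miR399 had 7 such transcripts of 4 genes in ZD9 and 6 of 5 genes in XZ153, and those of miR395 had 1 in ZD9 and 0 in XZ153.

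Some positions were listed under the same name in both cultivars. In the range with values in both lists, 69 records were shared, which is 21.8% of the 317 in ZD9 (17.3 to 26.7%) and 35.9% of the 192 in XZ153. Over all names the shares were 18.3% and 34.0%. By family they were 19 of 120 ZD9 records for miR395 (15.8%, 9.81 to 23.6%), 50 of 188 for miR399 (26.6%, 20.4 to 33.5%) and 0 of 9 for miR827 (up to 33.6%). For miR399 the interval lies above the share of all names, while several of its records are isoforms of 1 gene: the 50 shared records came from 25 genes. Counted by gene the shares were close: 25 of 94 miR399 genes in ZD9 (26.6%) had a shared position, beside 619 of 2430 (25.5%) over all names.

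A shared position was more frequent where ZD9 had more reads. Of ZD9 records with 1 read, 22 of 220 (10%) were listed in XZ153, beside 9.87% over all names. The share was 15 of 49 (30.6%) at 2 reads, 16 of 30 (53.3%) at 3 to 5 reads and 16 of 18 (88.9%) above 5 reads, and over all names 19.3%, 37.6% and 74.4%. The order is the same in the families and in the whole list.

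**Figure D5:**
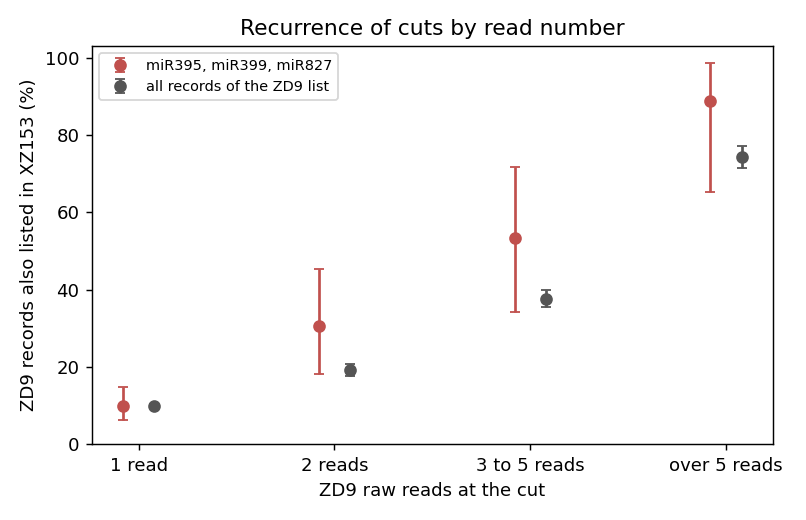
Share of ZD9 records listed at the same position under the same name in XZ153 (percent, vertical axis) by ZD9 raw reads (horizontal axis), for the 3 families and for all names; bars on the points are exact 95% intervals. The share in the families goes from 10% at 1 read to 88.9% above 5 reads, and over all names from 9.87% to 74.4%.

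Few members in the shared range were supported at all, 1 of 317 in ZD9 and 2 of 192 in XZ153. Over all names the shares there were 0.695% and 0.91%. With so few, the lack of a supported record among the 69 says little about shared positions. The counts that follow were not made over all names. Of the 69, none was supported in either list, 34 kept the same category, and 14, on 6 genes, were in categories 0 to 2 in both. Among mature names those were HORVU2Hr1G019820, described above, and HORVU1Hr1G045590 under bdi-miR395c-5p_1ss11AG, with 2 and 3 reads on isoforms 2 and 3 at an Allen score of 21. Among hairpin-arm names of miR399, HORVU1Hr1G045520 had 5 or 6 reads on 5 of its 6 shared isoforms and 2 on the other, at an Allen score of 8, and HORVU1Hr1G041250 had 2 to 6 reads on 4 isoforms, also at 8. HORVU1Hr1G075560 and HORVU1Hr1G095430, described above, complete the 6 genes. The position on isoform 5 of HORVU1Hr1G045520 moved from category 2 in ZD9 to category 1 in XZ153, with a p of 0.998 in ZD9 and 0.244 in XZ153. All of these 6 genes had Allen scores between 7 and 21, above the limit of 4.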

How the data were processed

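The authors deposited 1 list of predicted cleavage sites per cultivar; the column names resemble CleaveLand output, whose category definitions were assumed. For the tool, aligner, genome build and annotation, nothing is given in the sources used here. Per the file headers, each record has raw reads as a count (used for ZD9), an Allen score, a category score, a free-energy ratio (a fraction of the perfect duplex's energy) and a p-value; all are used as deposited. Records were selected by name, isoforms merged to genes by the identifier before the point, and pairing read from the deposited alignments. Empty lines (3 in ZD9, 20 in XZ153) and ZD9 records without values were not analysed. Genes named were supported, of lowest p, best paired (up to 5), of most reads (3, ZD9) or in both lists with category 0 to 2 in either, with exceptions stated. Not every gene that met the rule on most reads or the rule on both lists is named. The pathway gene list (ATP sulfurylases, sulfate and phosphate transporters, SPX proteins, PHO2) could not be applied, since identifiers carry no description. The members, lists and limits were chosen with earlier results of these data known. Pairing and counting were tested on simulated records. Python 3.11.15, pandas 2.3.3, scipy 1.17.1 and matplotlib 3.10.9 were used.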

Additional observations from a re-analysis of the deposited data

How the results depend on the processing

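With 1 library per cultivar, no replicate could be left out, and low read counts limit every category. No paired analysis was possible because each cultivar has 1 library. Of 47 alternatives, 24 stayed within 1.5 times the main count or the same median and 23 did not. Supported pairs under mature names fell from 1 to 0 in ZD9 and from 4 to 1 in XZ153 at a p of at most 0.01. In XZ153 they fell to 2 with category 0 alone, to 1 with an Allen score of at most 4 also required and to 1 in the shared range, while the arm pair fell from 1 to 0 at a p of at most 0.01 and with category 0 alone. Listed pairs of family and gene, counted as records, went from 93 to 156 (ZD9 mature), 74 to 161 (ZD9 arms), 268 to 414 (XZ153 mature) and 220 to 376 (XZ153 arms), and in the shared range XZ153 had 61 and 54. Well-paired genes at Allen limits of 2.5 and 6 were 1 and 11 (main 2) and 0 and 13 (main 1) for mature and arm names in ZD9, and 1 and 23 (main 2) and 1 and 45 (main 6) in XZ153. Transcripts with several cuts, with an Allen score of at most 6 required, fell from 1 to 0 in ZD9 and from 6 to 0 in XZ153.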
